A study of Mus musculus with 50 samples.

Results

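The circadian clock genes described here are 10 of the 21954 genes measured in wound bed tissue of amputated mouse digits. They are Arntl, Clock, Nr1d1, Nr1d2, Per1, Per2, Per3, Cry1, Dbp and Tef. They were chosen by name as members of the clock, but with earlier results of these data known. In the clock of mammalian cells, the proteins of Arntl (BMAL1) and Clock act as a pair that binds E-box sequences and switches on the Per and Cry genes, whose proteins return to block that pair. A second loop runs through Nr1d1 and Nr1d2 (REV-ERB alpha and beta), nuclear receptors that repress Arntl through RORE sequences. Dbp and Tef encode PAR bZIP transcription factors that bind D-box sequences and carry the rhythm to output genes. Skin, bone and other peripheral tissues hold such clocks, in which Arntl transcripts and those of Dbp, Nr1d1 and Per3 peak at opposite times of day.

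RNA of 41 digits was analysed, each sequenced as a separate library of polyadenylated RNA. All digits came from male C57Bl/6 mice 9 to 10 weeks old, in which the distal phalanx (P3) of hindlimb digit 3 was cut on both feet under isoflurane, at a level that could differ between the feet. In the 29 non-regenerative (NR) digits the labels give an amputation level between 60% and 80%, and they were taken at 0, 3, 6, 12 and 24 h and at 3, 7, 14 and 21 d, with 3 digits per time point and 5 at 7 d. The paper sets this group at more than 67%. Some NR digits are labelled at 67% or below, among them all 3 at 12 h. In the 12 intermediate (IM) digits, labelled Medium, the level was between 41% and 55%, with 3 digits at each of 0 h, 24 h, 14 d and 21 d. Regenerative digits were not analysed here. The tissue is a mixture of cells around the wound, so that fewer cells of a type and less RNA per cell cannot be told apart. Neither the hour of day nor the light schedule is given in the labels or methods. Time after amputation and time of day therefore cannot be told apart in any comparison of time points.

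Levels are given as CPM, the expected read counts of a gene relative to the library size of its digit, with TMM scaling over the 41 digits. The totals ran from 1468749 expected counts in a digit at 3 h (replicate 3) to 13011782, with a median of 6835347. Keratinocyte markers summed to between 29530 and 91160 CPM and those of fibroblasts to between 674.3 and 36540 CPM, so skin and connective tissue were present in every digit. Skeletal muscle markers stayed at 56.95 CPM or less. Among the NR digits, 7 d replicate 2 and 14 d replicate 2 stood apart, with a mean Spearman correlation of 0.699 and 0.659 to the other digits of their time point and 0.78 or more for every other digit. A gene was called where its Benjamini-Hochberg adjusted p-value in edgeR's quasi-likelihood test was under 0.05 and the group means of its normalized counts, each plus 1, stood more than 2-fold apart. All 10 clock genes passed the filter on low counts in every comparison. Where digits are said not to overlap those at 0 h, the share of all genes doing so was counted for 12 h alone. There, 39.4% of all genes did not overlap between NR digits at 12 h and 0 h, so a lack of overlap is common. The digit labels carry dates, of which 24 fall in July and August (the earlier period) and 17 between November and January (the later period). The NR digits at 0 h carry 20 July and 30 November 2015. All NR digits at 3 h carry 14 July 2015 and all at 12 h carry 20 July 2015, and all at 21 d are of the later period. Time after amputation and label date are therefore partly mixed in these comparisons with 0 h.

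Promoter windows of 9 of the 10 genes, from 250 bases before to 50 bases after an annotated start, were taken from RefSeq on GRCm38.p6. They were searched on both strands for the E-box (CACGTG), the D-box (TTATGNAA) and a RORE core (TNGGTCA), which 7.15%, 3.38% and 11.0% of 32851 windows of the same length hold. The 4 windows printed here are shown because together they hold each of the motifs through which the loops of the clock are joined. Capitals mark the motif letters, which do not overlap each other, and each window is written 5′ to 3′ along its gene.
Arntl, chr7:113207261-113207560, plus strand, 3 RORE cores: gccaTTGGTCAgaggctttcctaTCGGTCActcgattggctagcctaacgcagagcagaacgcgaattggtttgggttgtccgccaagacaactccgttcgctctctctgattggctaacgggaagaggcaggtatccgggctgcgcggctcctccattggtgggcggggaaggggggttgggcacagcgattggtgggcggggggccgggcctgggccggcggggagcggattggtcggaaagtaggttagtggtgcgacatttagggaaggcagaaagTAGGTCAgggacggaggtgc
Per3, chr4:151044616-151044915, minus strand, 2 D-boxes and 1 RORE core: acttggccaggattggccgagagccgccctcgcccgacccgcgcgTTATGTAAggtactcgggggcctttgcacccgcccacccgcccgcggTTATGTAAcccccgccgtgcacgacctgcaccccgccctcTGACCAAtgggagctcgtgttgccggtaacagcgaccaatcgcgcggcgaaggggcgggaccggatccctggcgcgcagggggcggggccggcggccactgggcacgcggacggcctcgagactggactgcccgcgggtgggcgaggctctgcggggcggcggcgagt
Per1, chr11:69098699-69098998, plus strand, 1 E-box and 1 D-box: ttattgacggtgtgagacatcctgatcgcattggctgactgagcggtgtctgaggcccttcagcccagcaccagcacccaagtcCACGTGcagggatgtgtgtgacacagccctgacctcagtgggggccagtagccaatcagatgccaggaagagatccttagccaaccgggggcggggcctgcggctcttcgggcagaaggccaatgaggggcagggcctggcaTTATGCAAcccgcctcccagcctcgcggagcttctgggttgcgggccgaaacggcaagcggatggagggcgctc
Cry1, chr10:85185005-85185304, minus strand, 1 E-box: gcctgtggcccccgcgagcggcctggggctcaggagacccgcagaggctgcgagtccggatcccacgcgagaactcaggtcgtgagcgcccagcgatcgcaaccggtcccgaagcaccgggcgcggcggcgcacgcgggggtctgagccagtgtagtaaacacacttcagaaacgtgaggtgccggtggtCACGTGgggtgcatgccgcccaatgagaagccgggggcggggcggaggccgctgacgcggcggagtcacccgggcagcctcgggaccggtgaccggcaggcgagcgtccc
Both windows of Tef also held an E-box, and one of them a RORE core as well. Those of Clock, Dbp, Nr1d1 and Nr1d2, and another window of Per1, held none of the 3 letter patterns. A match is a description of the letters and no evidence of binding.

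Per length, at 0 h in NR digits, the PAR bZIP gene Tef and the REV-ERB genes had the highest levels and Per2 the lowest. In normalized TPM the mean level was 99.7 ± 16.8 for Tef, 82.0 ± 21.2 for Nr1d1 and 81.1 ± 12.4 for Nr1d2 (SD, n = 3). Dbp followed at 54.6 ± 7.05, Clock at 45.7 ± 7.17 and Arntl at 35.2 ± 11.6 normalized TPM. Neighbours in this order had overlapping ranges, except that Nr1d2 lay above Dbp in all digits and Cry1 above Per2. Per1, Per3, Cry1 and Per2 stood at 22.5 ± 17.1, 12.8 ± 3.26, 11.9 ± 3.61 and 4.65 ± 1.74 normalized TPM.

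**Figure D1:**
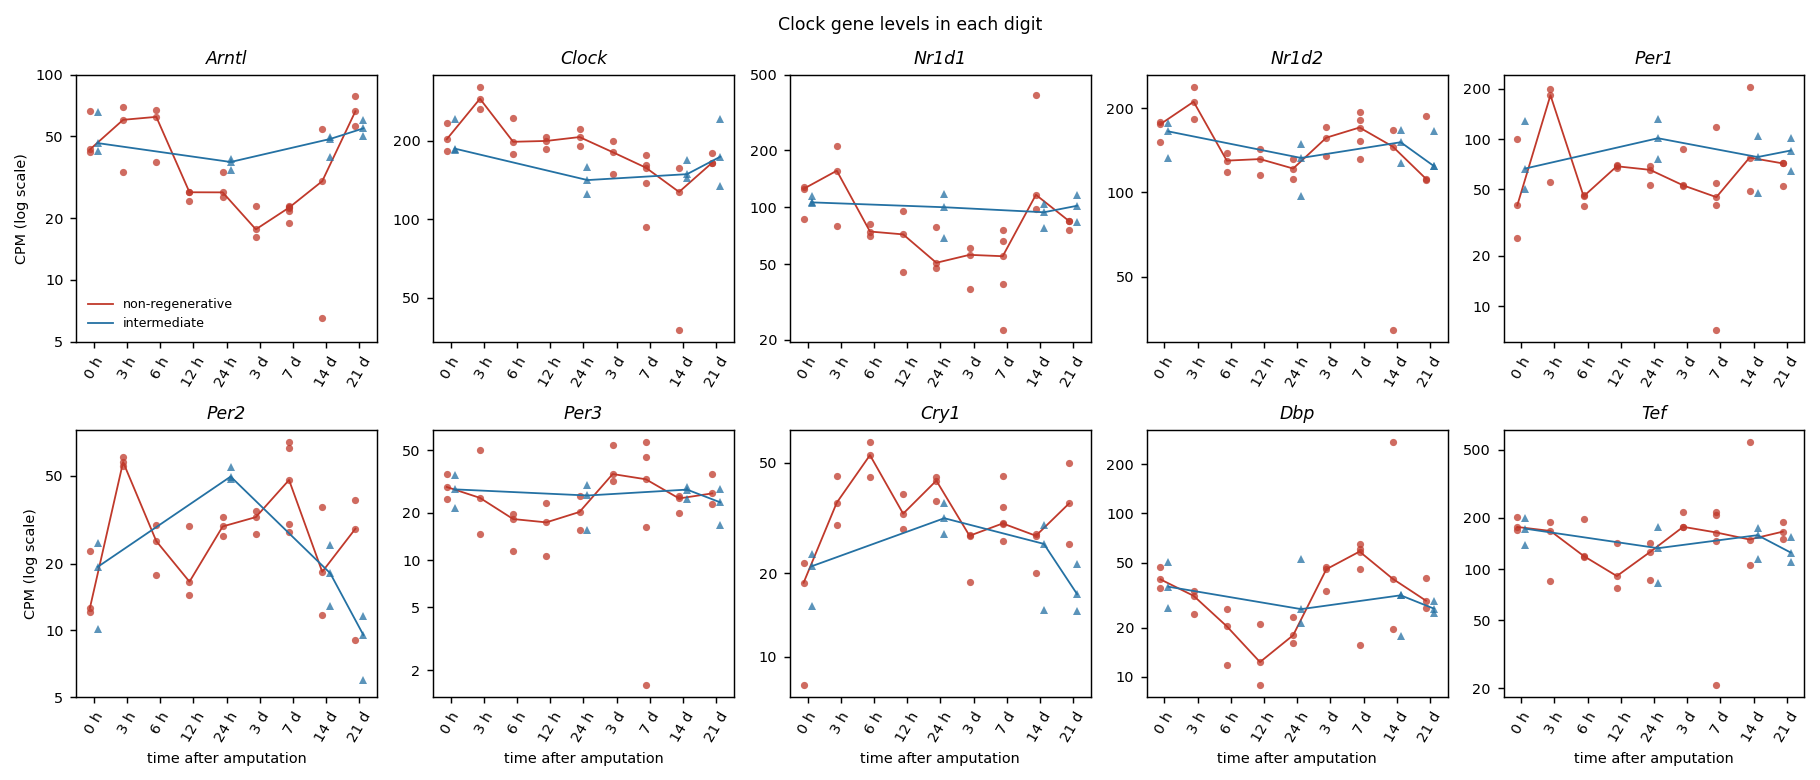
Level of each clock gene in CPM (log scale) by time after amputation, with 1 point per digit and a line through the median of each time point in NR (circles) and IM digits (triangles). Arntl was at 33.4 CPM or below in all NR digits from 12 h to 7 d and Dbp was lowest at 12 h, while single digits at 7 d and 14 d lie far from the others in several panels.

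Arntl, the gene of the activator BMAL1, was lower in NR digits from 12 h to 7 d than at 0 h, the time of amputation, and its levels at 21 d overlapped those at 0 h. At 0 h the 3 NR digits held 66.2, 43.2 and 42.1 CPM. At 12 h they held 24.3, 26.7 and 26.9 CPM and at 24 h 26.7, 25.3 and 33.4 CPM, so neither time point overlapped 0 h. The level at 3 d was lower still, at 16.2, 17.6 and 22.9 CPM, and the 5 digits at 7 d lay closely together between 18.9 and 23 CPM with a median of 22.5. The 14 d digits spread widely, at 54.3, 6.53 and 30.3 CPM, of which 6.53 CPM is replicate 2. All 3 digits at 21 d were high again, at 66.3, 79.0 and 56.1 CPM. Against 0 h, Arntl differed by -0.95 ± 0.22 on the log2 scale at 12 h (SE, adjusted p-value 0.0230) and by -0.83 ± 0.24 at 24 h (adjusted p-value 0.0453), both short of 2-fold. At 3 d the difference was larger, -1.41 ± 0.26, but its adjusted p-value was 0.0585, and at 7 d it was -1.19 ± 0.29 with an adjusted p-value of 0.336. At 3 h and 6 h the levels reached 33.4 to 69.8 CPM and overlapped those at 0 h.

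Clock encodes the partner of BMAL1. Its NR means ran from 293 CPM at 3 h to 143 CPM at 14 d without replicate 2 of that time point, a ratio of 2.05, and no comparison with 0 h called it. At 3 h all 3 digits (265, 323 and 290 CPM) lay above the 3 at 0 h (203, 234 and 182 CPM), with a log2 fold change of 0.52 ± 0.20 and an adjusted p-value of 0.421. At 12 h and 24 h its level matched 0 h within the spread, with log2 fold changes of -0.05 and 0.00. The later digits lay below every digit at 0 h, at 93.6 to 177 CPM at 7 d, 37.7 to 158 CPM at 14 d and 164 to 179 CPM at 21 d, with adjusted p-values of 0.9995, 0.655 and 0.813.

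Nr1d1, which encodes a repressor of Arntl, lay below 0 h at 6 h, 24 h, 3 d, 7 d and 21 d in NR digits, without overlap. It was called by edgeR at none of these times against 0 h. Its gene (chromosome 11, 98767932 to 98775333) shares exon sequence with Thra on the opposite strand, and whether the counting used strand is not given in the sources used here, so reads of the pair may be mixed. Nr1d1 stood at 128, 125 and 86.3 CPM at 0 h, against 51.0, 78.3 and 48.1 CPM at 24 h and 60.7, 37.2 and 56.1 CPM at 3 d. At 6 h it ran from 70.3 to 81.2 CPM and at 21 d from 75.9 to 85.1 CPM, just below the lowest 0 h digit, with adjusted p-values of 0.101 and 0.651. The log2 fold change was -0.94 ± 0.24 at 24 h (adjusted p-value 0.0297, short of 2-fold) and -1.14 ± 0.25 at 3 d (adjusted p-value 0.0986). At 7 d the lowest, median and highest digits held 22.5, 55.2 and 76.1 CPM, below every 0 h digit, with an adjusted p-value of 0.754. Thra itself stood at 25.3 to 45.4 CPM at 0 h and at 14.7 to 19 CPM at 24 h in NR digits, and its part in the Nr1d1 values was not tested. Nr1d2, the second REV-ERB gene, varied least of the 10, with NR means between 122 CPM at 24 h and 211 CPM at 3 h once both digits that stood apart were left out. It was at 179, 176 and 152 CPM at 0 h and at 122, 132 and 111 CPM at 24 h, and the log2 fold change of -0.47 ± 0.16 had an adjusted p-value of 0.0713.

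The Per genes encode the repressors of the BMAL1 and CLOCK pair, and Per1 and Per2 are also known as genes that respond within hours to hormones and other stimuli. Per2 was at 12.1, 12.6 and 22.9 CPM at 0 h in NR digits and at 55.4, 60.7 and 57.6 CPM at 3 h. All 3 digits at 3 h lay above the highest 0 h digit, and the log2 fold change was 1.88 ± 0.31. The adjusted p-value in edgeR was 0.190, and of the 12562 genes tested 0 were called and 1362 fell under 0.05 before adjustment. With DESeq2, Per2 was called in the same digits. At 6 h and 12 h Per2 overlapped 0 h, at 17.9 to 29.9 CPM and 14.4 to 29.8 CPM. At 24 h and 3 d it lay above every 0 h digit, at 26.7 to 32.5 CPM (log2 fold change 0.89 ± 0.28, adjusted p-value 0.0634) and 27.3 to 34.7 CPM (0.98 ± 0.30, adjusted p-value 0.245), and at 7 d its lowest, median and highest digits held 27.9, 47.8 and 71.2 CPM (log2 fold change 1.62 ± 0.45, adjusted p-value 0.499). Per1 was at 200, 183 and 55.1 CPM at 3 h, against 100.6, 40.1 and 25.5 CPM at 0 h, so 2 of the 3 digits were high and the ranges overlapped. The third digit at 3 h is the library with the fewest counts, and the log2 fold change of 1.44 ± 0.58 had an adjusted p-value of 0.446. Immediate early genes, a list of 6 that includes Fos and Egr1, summed to 1232 to 2818 CPM at 3 h and to 476.1 to 3240 CPM at 0 h. Glucocorticoid-responsive genes, a list of 4 that includes Fkbp5 and Tsc22d3, summed to 431.6 to 730.3 CPM at 3 h and 314.5 to 741.5 CPM at 0 h. The part of either in the Per values was not tested.

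Per3 was not called by edgeR over the NR time course (adjusted p-value 0.780). It was at 35.3, 29.2 and 24.6 CPM at 0 h, at 11.4, 18.2 and 19.6 CPM at 6 h and at 10.6, 23.2 and 17.4 CPM at 12 h in NR digits, and neither of these later time points overlapped 0 h. The log2 fold changes of -0.86 ± 0.27 and -0.78 ± 0.30 had adjusted p-values of 0.0964 and 0.105. At 3 d its digits lay above those at 6 h and 12 h, at 31.9, 35.3 and 53.8 CPM, and at 7 d it ran from 1.61 CPM in replicate 2 to 56.5 CPM.

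Cry1, which encodes the partner of the PER proteins in the repressor complex, was higher in NR digits at 6 h and 24 h than at 0 h. At 0 h it stood at 7.91, 21.7 and 18.5 CPM, at 3 h at 29.8, 44.9 and 35.9 CPM and at 6 h at 59.5, 44.4 and 53.3 CPM. At 12 h it stood at 32.8, 38.5 and 28.9 CPM and at 24 h at 44.6, 36.5 and 43.1 CPM, so that every digit from 3 h to 24 h lay above every digit at 0 h. The rise was called at 6 h, by 1.68 ± 0.35 on the log2 scale (adjusted p-value 0.0329), and at 24 h, by 1.35 ± 0.34 (adjusted p-value 0.0297). At 3 h and 12 h the log2 fold changes were 1.2 ± 0.41 and 1.05 ± 0.35, with adjusted p-values of 0.390 and 0.0681. At 6 h the call was lost when any 1 digit except replicate 1 of 0 h was left out, and at 24 h it was lost without replicate 3 of 0 h or without any 1 of the 24 h digits.

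Dbp, a direct output of the BMAL1 and CLOCK pair, was lower in NR digits in the hours after amputation and returned by 3 d. The NR digits held 35.1, 46.9 and 39.5 CPM at 0 h, 11.8, 20.4 and 26.1 CPM at 6 h, 8.92, 21.1 and 12.3 CPM at 12 h and 23.2, 18 and 16.2 CPM at 24 h. At 3 h they held 24.1 to 33.4 CPM (adjusted p-value in edgeR 0.563). No NR digit between 3 h and 24 h reached the lowest level at 0 h. Dbp was called at 12 h, where it fell by 1.5 ± 0.32 on the log2 scale (adjusted p-value 0.0162), and at 24 h, where it fell by 1.084 ± 0.22 (adjusted p-value 0.0134). At 6 h the log2 fold change was -1.07 ± 0.30 with an adjusted p-value of 0.0741. The call at 12 h was lost without replicate 2 of 0 h and without replicate 3 of 12 h, and that at 24 h without replicate 2 of 0 h and without replicate 3 of 24 h. At 3 d Dbp was back at 45.5, 33.4 and 46.7 CPM, and 4 of the 5 digits at 7 d held 45.7 to 64.8 CPM while replicate 2 held 15.7 CPM. The 14 d digits held 19.7, 274 and 39.8 CPM, of which 274 CPM is replicate 2. In IM digits Dbp overlapped between 0 h (26.4 to 50.35 CPM) and 24 h (21.5 to 52.4 CPM). The log2 fold change there was -0.18 ± 0.37, with an adjusted p-value in edgeR of 0.845. Exons of Dbp (chromosome 7, 45705088 to 45710203) overlap those of Sphk2 on the opposite strand, which stood at 17.6 to 27.6 CPM at 0 h and 17.2 to 20.95 CPM at 12 h. Its part in the Dbp values was not tested.

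Tef, which encodes a PAR bZIP factor related to that of Dbp, moved less. It was at 169, 201 and 177 CPM at 0 h and at 77.2, 141 and 91.0 CPM at 12 h in NR digits, without overlap. The log2 fold change of -0.81 ± 0.23 had an adjusted p-value of 0.0452 but was short of 2-fold. At 3 d Tef was back at 176, 215 and 177 CPM, and at 7 d its digits ran from 20.9 CPM in replicate 2 to 216 CPM.

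**Figure D2:**
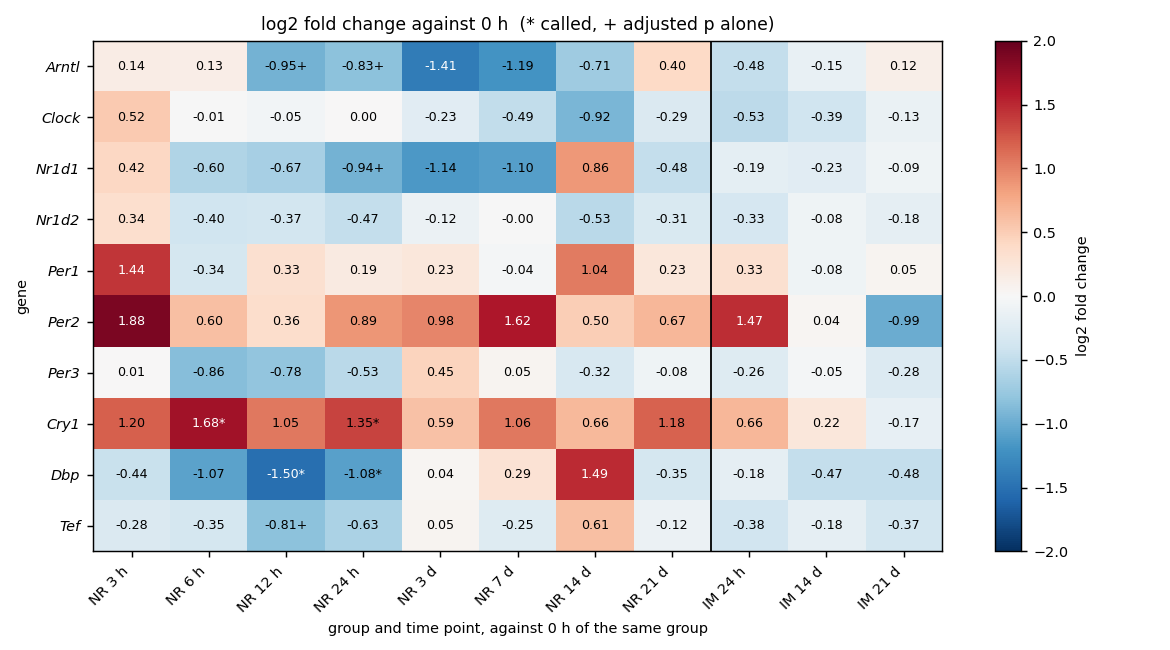
Log2 fold change of each clock gene against 0 h of the same group, for the 8 later NR time points and the 3 later IM time points. Stars mark called genes (Cry1 at 6 h and 24 h, Dbp at 12 h and 24 h) and plus signs mark genes past the adjusted p-value alone (Arntl at 12 h and 24 h, Tef at 12 h, Nr1d1 at 24 h). Arntl and Dbp are both low at 12 h and 24 h, whereas at 3 d and 7 d Arntl is low and Dbp is not.

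So few clock genes were called at 6 h, 12 h and 24 h that their share cannot be set apart from that of all genes. At each of these times the count fell to 0 in some fits with 1 digit left out. In NR digits against 0 h, 1 of 10 was called at 6 h, where 4.85% of all genes tested were called, 1 at 12 h (11.4% of all genes) and 2 at 24 h (10.7%). None was called at 3 h (0% of all genes), 3 d (0.723%), 7 d (0.0537%), 14 d (0%) or 21 d (0.452%). At an unadjusted p-value under 0.05 stood 4 clock genes at 3 h (10.8% of all genes) and 5 at 6 h (25.6%). There were 7 at 12 h (35.1%) and 7 at 24 h (32.9%). Later there were 3 at 3 d (11.1%), 4 at 7 d (4.34%), 0 at 14 d (7.7%) and 2 at 21 d (7.2%). The median log2 fold change of the 10 was -0.52 at 12 h and -0.50 at 24 h, against -0.03 and -0.04 over all genes. The comparisons with 0 h share its 3 digits. Between 12 h and 24 h no clock gene and 0% of all genes were called by edgeR, while before adjustment 0 clock genes and 9.46% of all genes passed 0.05. DESeq2 on the same digits also called Per2 at 3 h, Dbp beside Cry1 at 6 h, Cry1 beside Dbp at 12 h, Nr1d1 and Arntl at 3 d and Per2 and Arntl at 7 d. In a single fit over the 41 digits, Dbp was not called at 12 h or 24 h and Cry1 was called at both 6 h and 24 h.

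Over the whole NR time course, a test for any difference among the 9 time points called Arntl (adjusted p-value 0.0175), Nr1d1 (0.0115) and Dbp (0.0177), or 3 of 10 where 7.6% of all genes were called. The means of Arntl ranged from 18.9 CPM at 3 d to 67.1 CPM at 21 d, a ratio of 3.54. Those of Dbp ranged from 14.1 CPM at 12 h to 57.3 CPM at 7 d without the digits that stood apart, a ratio of 4.06, and those of Nr1d1 from 51.3 CPM at 3 d to 149 CPM at 3 h, a ratio of 2.90. Cry1 and Per2 had adjusted p-values of 0.0554 and 0.0563. Without those 2 digits, Per2, Clock and Cry1 were called as well. With the date period as a term, Nr1d1, Arntl and Cry1 were called and Dbp was not.

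The ratio of Arntl to Dbp within a digit does not depend on the depth of the library. In normalized TPM it was 0.463 to 0.970 at 0 h and 0.736 to 1.012 at 12 h in NR digits. At 3 d it was 0.195 to 0.262 and at 7 d 0.153 to 0.456, so both time points lay below every digit at 0 h, 12 h, 24 h and 21 d. At 21 d it was 0.722 to 1.43. At 12 h both genes were low together, whereas at 3 d and 7 d Arntl was low and Dbp was not. At 14 d the ratio spread from 0.0131 in replicate 2 to 1.84.

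In IM digits, Per2 was the only clock gene called over time. Its digits held 19.4, 24.9 and 10.1 CPM at 0 h, 54.6, 49.5 and 48.4 CPM at 24 h, 24.3, 18.1 and 12.9 CPM at 14 d and 5.96, 11.6 and 9.53 CPM at 21 d. All 3 digits at 24 h lay above all other IM digits. The test over the 4 IM time points called Per2 alone (adjusted p-value 0.00405), where 4.62% of all genes were called, and the ratio of its highest to its lowest mean count plus 1 was 5.51. Leaving out any 1 IM digit did not end the call, nor did the date period as a term (adjusted p-value 0.0116). Neutrophil markers summed to 72.0 to 572.3 CPM in the IM digits at 24 h and to 28.2 to 46.3 CPM at 0 h, and their part in the Per2 values was not tested. Against IM 0 h alone, the log2 fold change of Per2 at 24 h was 1.47 ± 0.30 with an adjusted p-value of 0.12, and no clock gene was called at 24 h (0.0152% of all genes), 14 d (1.68%) or 21 d (1.39%). At an unadjusted p-value under 0.05 stood 4, 1 and 1 clock genes, and 15.4%, 13.4% and 16.6% of all genes. At 24 h Arntl (34.4 to 38.6 CPM) and Clock (125 to 159 CPM) lay below all IM digits at 0 h. Cry1 (27.6 to 35.9 CPM) lay above them. The adjusted p-values of Arntl, Clock and Cry1 in edgeR were 0.31, 0.247 and 0.247.

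No difference between the groups at 24 h was called for any clock gene. Per2 was at 48.4 to 54.6 CPM in IM and 26.7 to 32.5 CPM in NR digits, without overlap, and the log2 fold change of IM over NR was 0.79 ± 0.17 with an adjusted p-value of 0.272. Arntl was at 34.4, 38.6 and 37.5 CPM in IM digits at 24 h, above the 25.3 to 33.4 CPM of the NR digits, with a log2 fold change of 0.38 ± 0.19 and an adjusted p-value of 0.484. Dbp was at 21.5, 52.4 and 25.9 CPM in IM digits, so 1 digit was high and the ranges overlapped. Clock was at 125 to 159 CPM in IM and 191 to 223 CPM in NR digits, without overlap, with a log2 fold change of -0.54 ± 0.17 and an adjusted p-value of 0.376. No clock gene was called between IM and NR digits at 0 h, 24 h or 14 d (0% of all genes at each) or at 21 d (0.648%). At an unadjusted p-value under 0.05 stood 0, 5, 0 and 3 clock genes, against 3.64% of all genes at 0 h, 11.3% at 24 h, 270 of 13421 genes at 14 d and 14% at 21 d. At 21 d, Cry1 was at 14.6 to 21.6 CPM in IM and 25.4 to 49.7 CPM in NR digits, with a log2 fold change of -1.082 ± 0.27 and an adjusted p-value of 0.129. The 21 d digits are all of the earlier period in IM and all of the later period in NR, so group and period cannot be told apart there. Tests of whether the change from 0 h differed between the groups called no gene at 24 h, 14 d or 21 d (0% of all genes at each). Of the clock genes, 2, 0 and 2 had an unadjusted p-value under 0.05 in these tests, and of all genes 8.09%, 3.59% and 5.92%.

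The digits labelled 20 July 2015 allowed a comparison of 12 h with 0 h within a single date. They are 3 NR digits at 12 h and 3 digits at 0 h, of which 1 is NR and 2 are IM. Within this date 4 of the 10 clock genes did not overlap between the time points, which is near the share of all genes (41.6% of 14996). The count depended on the scaling, since in normalized TPM 8 clock genes and 37.0% of all genes did not overlap. With the NR digits at 0 h of all dates in place of this date's, 6 clock genes and 39.4% of all genes did not overlap in CPM. Arntl was at 46.4, 66.0 and 66.2 CPM at 0 h and 24.3, 26.7 and 26.9 CPM at 12 h. Dbp was at 26.4, 35.1 and 35.6 CPM at 0 h and 8.92, 12.3 and 21.1 CPM at 12 h. Both genes were thus lower at 12 h within the date, with a log2 ratio of means of -1.2 for each. An exact permutation test of 3 against 3 digits cannot go below p = 0.1. Nr1d1 was lower as well, at 105 to 128 CPM and 45.5 to 95.2 CPM, and Cry1 was higher, at 7.91 to 21.2 CPM and 28.9 to 38.5 CPM. Clock overlapped, with means of 211 ± 28.4 CPM at 0 h and 198 ± 10.2 CPM at 12 h (SD, n = 3).

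**Figure D3:**
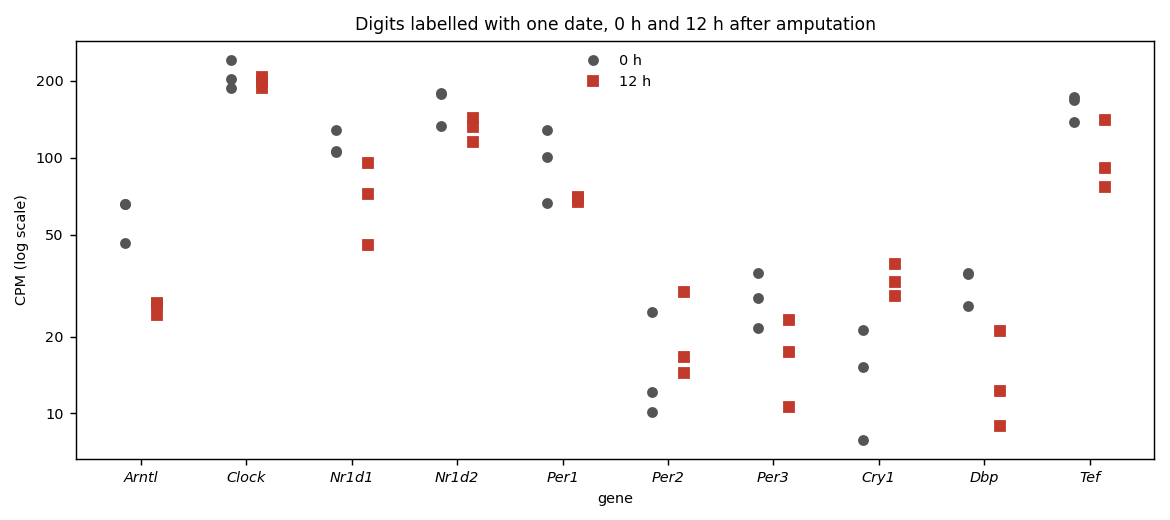
CPM (log scale) of the clock genes in the 3 digits at 0 h (circles) and the 3 at 12 h (squares) whose labels carry the date 20 July 2015, with 1 point per digit. The points of Arntl, Nr1d1, Dbp and Cry1 do not overlap between 0 h and 12 h, as was the case for 41.6% of all genes tested.

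Across all digits, the later date period differed from the earlier one in none of the clock genes by the same rule, where 2.51% of all genes were called. Arntl had the smallest p-value, with a log2 fold change of -0.46 ± 0.17 for later over earlier and an adjusted p-value of 0.0898.

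Digits of the same group and time point also varied together in some clock genes. To look at this apart from the time course, the mean of each group and time point was subtracted from the log2 CPM and 6 pairs of genes were tested over the 41 digits, with 100000 permutations within group and time point (two-sided) and adjustment over the 6 pairs. Dbp and Per3 had r = 0.58 (permutation adjusted p-value 6e-05) and rho = 0.72 (6e-05), and Dbp and Tef r = 0.80 (permutation adjusted p-value 0.00066) and rho = 0.74 (0.00072). The smallest adjusted value that 100000 permutations can give here is 6e-05. Both held without the 2 digits farthest from the median of Dbp, at r = 0.78 and r = 0.76. Arntl and Dbp had r = -0.73 (permutation adjusted p-value 0.00354) and rho = -0.49 (0.0108), which became r = -0.36 without replicates 1 and 2 of NR 14 d, so the size of that relation rests in part on those digits. The other 3 pairs were not past the threshold. Arntl and Nr1d1 had r = -0.35, Nr1d1 and Nr1d2 r = -0.41, and Per1 and Per2 r = 0.10, with permutation adjusted p-values of 0.514, 0.442 and 0.649. Their rho values were -0.04, -0.02 and 0.06, each with a permutation adjusted p-value of 0.905, and without the 2 farthest digits r was 0.19, -0.26 and -0.13. How often other pairs of genes vary together after the same subtraction was not counted. Some label marks and dates recur between digits, so a few digits may come from the same animal.

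**Figure D4:**
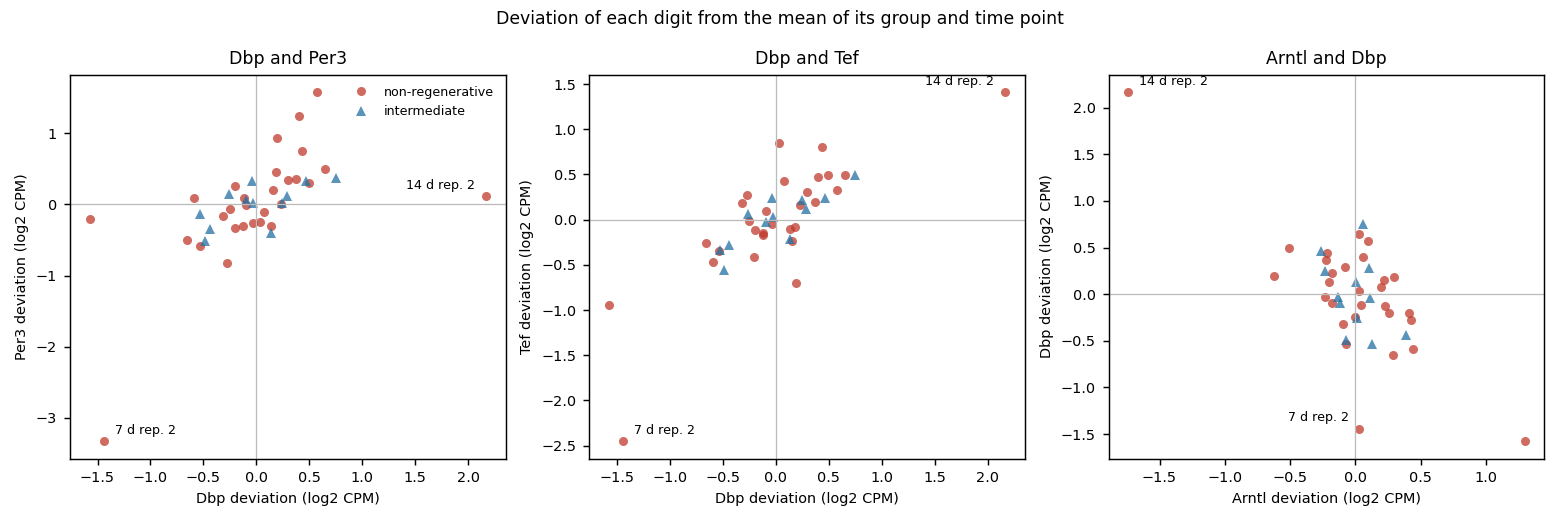
Deviation of each digit from the mean log2 CPM of its group and time point, for Dbp against Per3, Dbp against Tef and Arntl against Dbp, with 1 point per digit (circles NR, triangles IM). Digits with more Dbp also hold more Per3 and Tef, and the labelled digits are the 2 that stood apart.

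Of 19 further clock genes in a list, 17 were tested in NR digits against 0 h. At 12 h 2 were called, 1 higher and 1 lower, at 24 h 1 was called lower, and no other NR time point had a call. These counts are near or below the 11.4% and 10.7% of all genes called at 12 h and 24 h. Rora, which activates Arntl through the same RORE sequences that the REV-ERB proteins use, ran from 530.2 to 834.9 CPM at 0 h, from 197.9 to 409 CPM at 12 h and from 208.1 to 360 CPM at 24 h. Its log2 fold changes were -1.26 ± 0.30 (adjusted p-value 0.0241) and -1.22 ± 0.26 (adjusted p-value 0.0170), so both this activator gene and Arntl were low at 12 h and 24 h. At 3 d (506.5 to 719.3 CPM) and 7 d (548.8 to 806.6 CPM) Rora overlapped 0 h, whereas Arntl was still below it. Any link between Rora and Arntl was not tested. Nfil3, a repressor that competes with Dbp and Tef for D-box sequences, was at 3.62 to 12.7 CPM at 0 h and 17.6 to 26.6 CPM at 12 h, a log2 fold change of 1.64 ± 0.45 (adjusted p-value 0.0375). Over the NR time course Rora and Cry2 were called, and Cry2, a paralogue of Cry1, ran from a mean of 34.3 CPM at 12 h to 113 CPM at 3 h. No further clock gene was called in the IM digits.

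Markers of the cell types in the tissue moved over the same hours, with no keratinocyte or fibroblast marker at 0. In NR digits, neutrophil markers summed to 17.4 to 35.7 CPM at 0 h, 234.4 to 577 CPM at 12 h and 469.1 to 790.2 CPM at 24 h. Macrophage markers (5 of a list of 6 were in the table) summed to 53.0 to 75.4 CPM at 0 h, 155.7 to 253.5 CPM at 12 h and 63.5 to 253 CPM at 24 h. Keratinocyte markers summed to 38010 to 82420 CPM at 0 h, 34290 to 43000 CPM at 12 h and 38670 to 68970 CPM at 24 h. Fibroblast markers summed to 1964 to 3127 CPM at 0 h. They lay below that at 12 h (958.6 to 1682 CPM) and 24 h (674.3 to 1581 CPM), when Arntl and Dbp were low. At 3 h (883.8 to 4554 CPM) and 6 h (749.8 to 3089 CPM) they overlapped 0 h, whereas Dbp was already below it. From 3 d to 21 d fibroblast markers lay above 0 h, at 3306 to 36540 CPM. At 3 d Arntl was nevertheless below every digit at 0 h, at 16.2 to 22.9 CPM. The part of these shifts in the clock gene values was not tested.

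Among the 13691 genes that averaged 1 normalized TPM or more, those outside the clock genes whose pattern over the 41 digits was most like that of Dbp by Spearman's rho were Scp2 (0.78), Htatip2 (0.78), H2-T22 (0.73), Idh2 (0.69) and Tfap2e (0.68). The clock genes Tef (0.74) and Per3 (0.73) ranked just below Htatip2. The lowest rho with Dbp was found for Abce1 (-0.77), Myo19 (-0.77), Cdk6 (-0.76), Utp14b (-0.76) and Urb2 (-0.73). For Arntl the highest were Bbox1 (0.76), Npnt (0.75), Pak3 (0.73), F3 (0.73) and Tshz1 (0.73), and among the lowest were BC100530 (-0.78), Ostc (-0.75), Stfa3 (-0.73) and Ostf1 (-0.73). The clock gene closest to Arntl was Nr1d1 at 0.56, and Arntl and Dbp had a rho of -0.27 over all digits. These values describe the order of the digits, which share time points, and no shared function is read from them.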

How the data were processed

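RNA of mouse digits was sequenced by ligation mediated sequencing (LM-Seq) of polyadenylated RNA. The authors mapped reads with Bowtie, estimated an expected count per gene with RSEM 1.2.3 and deposited these counts without normalization, with mm10 named as the build. The second deposited table holds a signal, normalized TPM, which is TPM scaled by median-by-ratio. The names of 26 genes had become dates and were restored. Files of cultured macrophages were not used here.

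Expected counts were rounded and tested with edgeR 4.0.16 (filterByExpr, TMM, glmQLFit, glmQLFTest) in R 4.3.3 on the 2 groups compared, or on all time points of a group for the courses. The study used EBSeq, which was not used here, but its thresholds (5% false discovery rate, 2-fold of normalized count plus 1) were kept. Error is the SE of the log2 fold change, and p-values measure only the spread between digits. Labels do not pair digits. DESeq2 1.42.0, limma 3.58.1 on log2(normalized TPM + 1), other size factors, filters and sets of digits were alternatives. Log2 CPM used a prior count of 2. Simulated data were run through edgeR for NR 12 h against 0 h, the NR time course and the date period. The test of whether the change at 24 h differed between the groups was run on simulated data as well.

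The members and gene lists were chosen with earlier results of these data known. Named are all members, listed clock genes called in NR digits (at most 8), and the 5 highest and 5 lowest genes by rho with Dbp and with Arntl. A gene that this rule names is not reported here.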

Additional observations from a re-analysis of the deposited data

How the results depend on the processing

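Single digits and the choice of test decided several calls of clock genes. Shares of all genes called under the same setting stand in parentheses. With DESeq2, 1 clock gene was called at NR 3 h (1.56%), 2 at 6 h (8.45%), 2 at 12 h (15%), 2 at 3 d (3.39%), 2 at 7 d (1.23%), 1 at IM 24 h (2.65%), 2 between IM and NR at 21 d (1.49%) and 6 over the NR time course (29.5%). With the adjusted p-value alone, 3 were called at NR 12 h (18.1%) and 4 at 24 h (16.8%). With all 41 digits in 1 fit, 0 were called at 12 h (2.81%), 1 at 24 h (2.21%) and 1 at 7 d (1.09%), and with the date period added 0 (301 of 14996 genes), 1 (2.22%) and 2 (1.15%). Without a filter on low counts 1 was called at 3 d (0.994%). RLE size factors gave 6 calls over the NR time course (16.2%), as did leaving out both digits that stood apart (17.3%), a choice made after seeing the data. With 1 digit left out, calls ran from 0 to 1 at NR 6 h, 0 to 2 at 12 h, 0 to 3 at 24 h, 0 to 1 between IM and NR at 21 d and 3 to 6 over the NR time course, with 6 without replicate 1 or replicate 2 of 14 d and 5 without replicate 2 of 7 d. Arntl and Nr1d1 were called over that course under every alternative run, and Dbp under all but the date period term. Within 20 July 2015, 8 clock genes did not overlap in normalized TPM (37.0%). No alternative reversed a called gene or moved a pair's r across its threshold. By rho, without subtracting the group means, Arntl and Nr1d1 passed (0.53, permutation adjusted p-value 0.00074) and Arntl and Dbp did not (-0.26, permutation adjusted p-value 0.148). No paired analysis was possible because the digit labels carry no replicate numbers that pair digits between groups. Label dates are shared by IM and NR digits at 24 h and at 14 d, and with the date as a block, added after seeing the data, 0 clock genes were called at either time. The spread between 3 or 5 digits limits which changes can be called.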

Other observations

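Per1 and the immediate early list differed among the digits taken at 0 h by label date, a split noticed after the values were seen. In the 3 digits of 20 July 2015, Per1 was at 100.6 CPM in the NR digit and at 129 and 66.7 CPM in the IM digits, and the immediate early genes summed to 3240, 3841 and 3503 CPM. In the 3 digits at 0 h with later dates, Per1 was at 40.1 and 25.5 CPM in the NR digits and at 50.1 CPM in the IM digit, and the sums were 849.1, 476.1 and 382.3 CPM. Cry1 was at 7.91 CPM in the NR digit of 20 July and at 21.7 and 18.5 CPM in the later NR digits, and its calls at 6 h and 24 h held when the digit of 20 July was left out.

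The library of NR 14 d replicate 2 was unlike the others as a whole. It had the lowest TMM factor of all digits (0.651) and a mean Spearman correlation of 0.623 to the other digits. How many of all genes were at an extreme in this digit was not counted. Its clock genes were spread in both directions. Dbp (274 CPM), Tef (558 CPM), Nr1d1 (390 CPM) and Per1 (206 CPM) were each the highest of all 41 digits, while Arntl (6.53 CPM), Clock (37.7 CPM) and Nr1d2 (32.3 CPM) were each the lowest. NR 7 d replicate 2 had the fewest detected genes of all digits (10072) and a mean correlation of 0.682 to the others. Its share of genes at an extreme was not counted either. In this digit, Per1 (7.25 CPM), Per3 (1.61 CPM), Tef (20.9 CPM) and Nr1d1 (22.5 CPM) were each the lowest of all digits. Per2 (30.2 CPM), Cry1 (30 CPM) and Arntl (21.7 CPM) lay within the range of the other 7 d digits.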
